A study of Mus musculus with 4 samples.

Results

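The 37 genes described here are type I interferon-stimulated genes, chosen as a list of symbols and looked up in the gene column of each matrix. Of these, 35 had a row among the 32285 genes measured. Mx1 and Mx2 matched no row and were not analysed here. The list was read in immune cells of CT26 tumours, by cell class and by library, in tumours of control mice and of mice given liproxstatin-1.

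CT26 is a colon carcinoma line that grows in Balb/c mice, and liproxstatin-1 is an inhibitor of ferroptosis, the form of cell death driven by peroxidation of membrane lipids. All mice were Balb/c, 9 weeks old and bore CT26 tumours. The control group gave 2 libraries and the group treated with liproxstatin for 8 days gave 2 libraries, each of CD45+ cells enriched from tumours with magnetic beads and profiled with 10x Genomics droplets. The series title concerns ferroptosis of neutrophils in tumours, so the comparison asks how the immune cells differ when ferroptosis is inhibited. Nothing in the labels says whether the replicates of a group came from separate animals, so each p-value reflects only how far the libraries of a group differed, and that spread may be technical.

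The 4 libraries held between 4138 and 9299 barcodes and between 83129874 and 168597163 unique molecular identifiers (UMIs, each marking 1 captured transcript end). After filtering, 25730 cells were used, between 3753 and 8061 per library, and library pairs shared 4 to 22 barcodes. Control replicate 1 was the smallest library and stood apart in the genes described here. Cells were clustered on genes that excluded the listed genes and 2 further lists of interferon genes, and clusters were named from markers. This gave 14 classes in which no library held fewer than 20 cells. Levels are given as CPM, a gene's UMIs relative to all UMIs of that class in that library, with no division by gene length. A name means only that a cluster carried the markers of that cell type: neutrophils by S100a9, G0s2 and S100a8, monocytes by Vcan and Ly6c2, plasmacytoid dendritic cells (pDC) by Siglech and Klk1. A cluster led by Lyve1, Ednrb and Cd163 was kept under those genes' names, and 1 T cell cluster led by Tcf7 is called other T cells. Tests in those clusters and in mast cells and basophils were added after the classes were seen.

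Type I interferons are secreted by cells that sense nucleic acids, and they bind a receptor made of Ifnar1 and Ifnar2. The receptor activates the kinases Jak1 and Tyk2, and signalling leads to a complex with Irf9 that binds a short repeated element in the promoters of its targets. The targets include the sensors and transcription factors of the same pathway, so that the response feeds itself, and effectors that block translation, degrade RNA or tag proteins. In tumours the pathway is known for its part in cross-priming by dendritic cells and in the activation of T cells and natural killer (NK) cells. These genes are induced together, so their changes within a class are not independent of each other.

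The bound element is usually written as a pair of GAAA blocks, and the promoters of 5 of the 6 genes that passed a test are shown to make it visible. The promoter of Ifi27l2a, the other gene, is not shown. RefSeq promoter windows (GRCm38.p6, 250 bases before to 50 bases after a start) were found for 27 of the 35 genes. The motif of GAAA, any 2 bases and GAAA, searched on both strands (TTTC, any 2 bases and TTTC on the opposite strand) and allowing overlaps, lay before a start in 13 of these 27 genes (48.1%). Over all genes in the table, 936 of 27025 (3.46%) held it before a start. The following stretches run 5′ to 3′ on the strand of the gene and end at or before the start. Capitals mark the bases of each match.
Isg15: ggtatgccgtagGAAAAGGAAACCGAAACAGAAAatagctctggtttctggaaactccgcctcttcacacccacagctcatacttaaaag
Ifit1: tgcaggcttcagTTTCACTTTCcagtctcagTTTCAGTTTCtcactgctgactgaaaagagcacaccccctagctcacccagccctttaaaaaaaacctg
Ifit3: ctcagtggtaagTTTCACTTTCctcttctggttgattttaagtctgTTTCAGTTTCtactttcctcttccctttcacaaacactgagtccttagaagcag
Ifit3b: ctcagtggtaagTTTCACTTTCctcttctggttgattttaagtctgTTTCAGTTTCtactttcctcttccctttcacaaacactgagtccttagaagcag
Ifi206: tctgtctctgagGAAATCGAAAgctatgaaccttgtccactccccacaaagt

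The Isg15 stretch is chr4:156200819-156200908 on the minus strand and holds 3 overlapping matches, the first beginning 78 bases before the start. The Ifit1 stretch is chr19:34640773-34640872 on the plus strand and holds 2 matches, both on the opposite strand. The stretches of Ifit3 (chr19:34583361-34583460, plus strand) and Ifit3b (chr19:34607757-34607856, plus strand) are identical at 100 of 100 bases, each with 2 matches. The Ifi206 stretch is chr1:173491319-173491370 on the minus strand and holds 1 match. A match is a description of letters and not a measured binding site.

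The 6 genes that passed a test are protein-coding in GENCODE M21 (GRCm38). Ifit1 (ENSMUSG00000034459), Ifit3 (ENSMUSG00000074896) and Ifit3b (ENSMUSG00000062488) lie on chromosome 19 at 34640871-34650009, 34583531-34588731 and 34607970-34613401. Isg15 (ENSMUSG00000035692) lies on chromosome 4 at 156199424-156200818, Ifi206 (ENSMUSG00000037849) on chromosome 1 at 173468485-173491041 and Ifi27l2a (ENSMUSG00000079017) on chromosome 12 at 103442167-103443680. Ifit3 and Ifit3b are related genes that share part of their sequence: 30.5% of the 90-base stretches of the Ifit3b transcript occur unchanged in Ifit3. In the last 500 bases, where 3′ reads concentrate, none of the Ifit3b stretches did and 6.57% of the Ifit3 stretches occurred in Ifit3b, and reads from shared stretches cannot be assigned to 1 copy.

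Levels differed widely between classes. In B cells 26 and in mast cells and basophils 23 of the 35 genes had too few UMIs to be tested. The summed level of the 35 genes over the 4 libraries averaged 10128 CPM ± 2188 (SD, n = 4) in neutrophils, 9149 ± 1192 in pDC, 7863 ± 1477 in regulatory T cells, 7674 ± 1526 in monocytes and 6854 ± 1424 in type 2 conventional dendritic cells (cDC2). Macrophages averaged 3853 ± 561, NK cells 2096 ± 204 and CD8 T cells 1782 ± 188. B cells (1403 ± 605) and mast cells and basophils (1379 ± 338) had the lowest sums of the 14 classes. The SD of neighbours in this order overlapped from neutrophils down to cDC2, whereas the libraries of CD8 T cells (1673 to 2064 CPM) and of macrophages (3529 to 4692 CPM) did not overlap. Ifit3 stood at 1.44 CPM and Ifit3b at 0.438 CPM in mast cells and basophils, on at most 1 UMI per library.

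**Figure D1:**
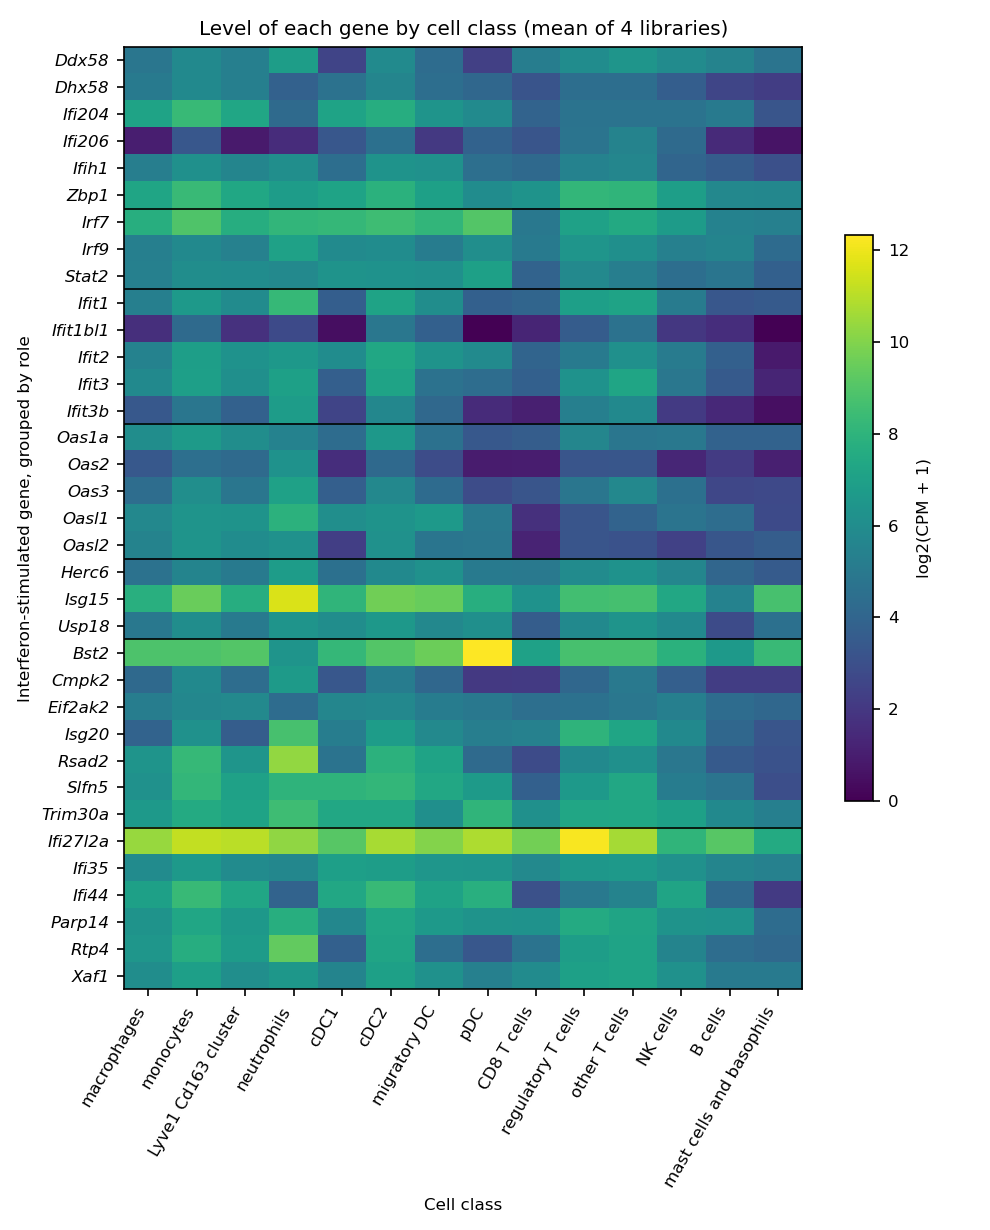
Mean level over 4 libraries of each of the 35 genes (rows, grouped by role) in the 14 cell classes (columns), as log2(CPM + 1) on a linear colour scale. Isg15 and Rsad2 are bright in neutrophils, Bst2 in pDC and Ifi27l2a in regulatory T cells.

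By CPM, neutrophils held the highest mean of 15 of the 35 genes. For 10 of these their lowest library lay above the highest library of every other class. The share of all genes that were highest in neutrophils was not counted, so these counts are not a result about the listed genes. Isg15, a ubiquitin-like protein that is conjugated to other proteins, stood at 4067 and 2218 CPM in control and 2917 and 3506 CPM in liproxstatin neutrophils. Its next class was cDC2, with a mean of 795 CPM. Rsad2, which makes a nucleotide that stops viral RNA synthesis, averaged 1286 CPM ± 262 (SD, n = 4) in neutrophils against 300.4 CPM in monocytes. Rtp4, a chaperone of membrane receptors, averaged 647 CPM in neutrophils against 206 CPM in monocytes. Bst2, a membrane protein that tethers virions, was at its lowest in neutrophils, at 81.0 CPM. Isg15 was present in between 80% and 89.3% of neutrophils thinned to 3000 UMIs, whereas Ifit3, which belongs to a family that binds viral RNA, was present in 6.1% to 14.7%.

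Neutrophils also held the fewest UMIs, on average 3438 per cell against 16372 in monocytes, so their CPM rest on a small total. Counted as UMIs per cell, none of the 35 genes was highest in neutrophils, whereas cDC2 led for 20 and the Lyve1 Cd163 cluster for 12. The share of all genes was not counted here either. Neutrophils averaged 10.8 Isg15 UMIs per cell, monocytes 11.8 and cDC2 18.3. The neutrophil lead was thus seen in the share of UMIs and not in UMIs per cell.

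Other classes were marked by 1 or 2 genes. In pDC, Bst2 gave 55.8% of the summed level, at 5107 CPM ± 332 (SD, n = 4), and the next class reached 744 CPM. Irf7, the transcription factor that drives interferon alpha genes, reached 511 CPM in pDC, close to its level in monocytes (492 CPM). In regulatory T cells, Ifi27l2a, a small interferon-induced protein, gave 59.4% of the sum, at 4674 CPM ± 1165, and monocytes followed at 2323 CPM ± 558. Ifi27l2a was the most abundant of the genes in 11 of the 14 classes, among them macrophages (1349 CPM ± 282), CD8 T cells (837 CPM ± 103) and NK cells (265 CPM ± 57.3). In mast cells and basophils Isg15 led (427 CPM ± 264), followed by Bst2 and Ifi27l2a. Ifi204, a DNA sensor, was highest in monocytes, at 316 CPM, and its lowest monocyte library (274 CPM) lay above the highest library of every other class (240.4 CPM). Zbp1, a sensor of left-handed nucleic acids, and Parp14, a mono-ADP-ribosyl transferase, followed Ifi27l2a and Bst2 in CD8 T cells (79.7 CPM) and in B cells (76.0 CPM).

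By the median over the listed genes, the control libraries differed from each other more than the liproxstatin libraries did in every class but cDC1, NK cells, B cells and mast cells and basophils. In macrophages, monocytes and the Lyve1 Cd163 cluster pooled (mononuclear phagocytes), the summed level was 5713 and 4083 CPM in control and 4259 and 4378 CPM in liproxstatin tumours. All 35 of 35 genes were higher in control replicate 1 than in control replicate 2 of this class, with a median difference of 0.44 on the log2 scale, where the median of all genes was -0.04. Over the 14 classes, 354 of 413 pairs of a gene and a class were higher in control replicate 1 than in control replicate 2. Control replicate 1 held the highest sum in 12 of the 14 classes, all but B cells and mast cells. The median differences were largest in migratory dendritic cells (2.06) and pDC (1.26), both with few cells. Liproxstatin libraries differed by -0.04 in mononuclear phagocytes and by up to 1.02 in migratory dendritic cells.

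**Figure D2:**
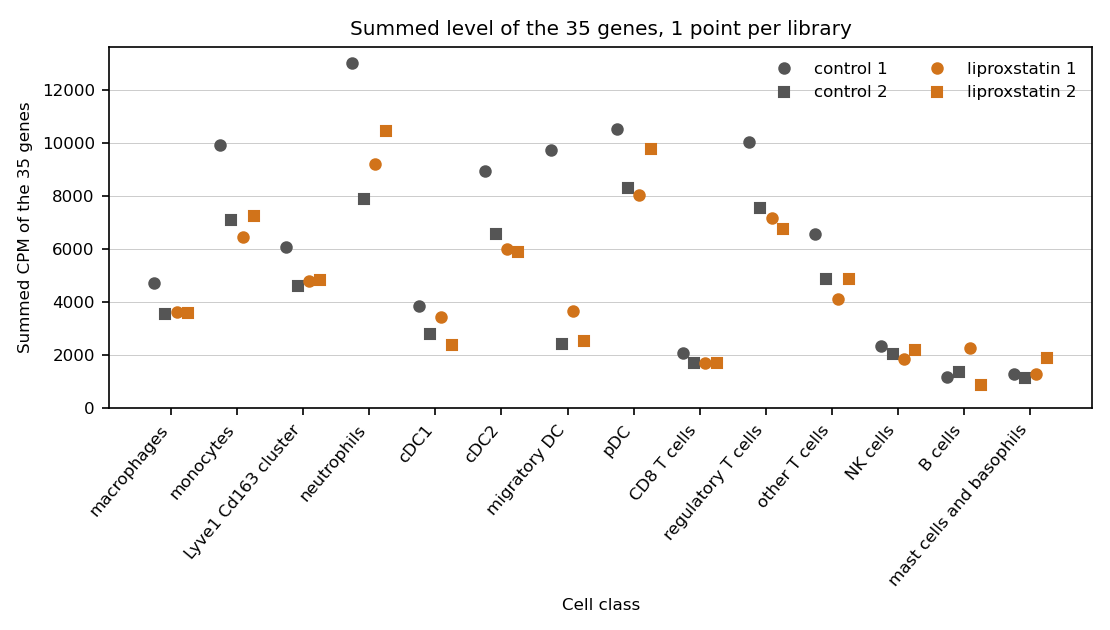
Summed CPM of the 35 genes (vertical axis) in 14 cell classes, with 1 point per library, grey for control and orange for liproxstatin. Control replicate 1 (grey circle) is the highest point in 12 classes, while control replicate 2 lies among or near the liproxstatin libraries.

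The ratio of summed levels, liproxstatin over control, was below 1 in 12 of the 14 classes, and in 4 of them both liproxstatin libraries lay below both controls. In monocytes the sums were 9905 and 7089 CPM in control and 6454 and 7249 CPM in liproxstatin tumours, and the groups overlapped. In cDC2 they were 8942 and 6574 CPM against 6008 and 5891 CPM, and in regulatory T cells 10028 and 7520 CPM against 7157 and 6748 CPM. The groups did not overlap in either class, but parted by less than 1 SD of the controls (1675 and 1773 CPM). In CD8 T cells the sums were 2064 and 1702 CPM against 1690 and 1673 CPM, where the groups also parted by less than 1 SD of the controls. In neutrophils they were 13004 and 7863 CPM against 9199 and 10447 CPM, and both liproxstatin libraries lay between the controls. Without control replicate 1, the log2 ratio of the sums moved from -0.18 to 0.08 in mononuclear phagocytes, from -0.09 to 0.32 in neutrophils and from -0.98 to 0.36 in migratory dendritic cells.

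Tested gene by gene with edgeR's quasi-likelihood test and Benjamini-Hochberg adjustment over all genes of a class, few of the genes passed a threshold of 0.05. Of 413 pairs of a gene and a class in the 14 classes, 1 rose and 3 fell. The background was 563 calls, as 0.484% of 116380 pairs of all genes passed. The fold change was negative in 288 of the 413 pairs (69.7%), against 50.6% for all genes. Unadjusted p-values under 0.05 were found for 11.6% of the pairs of the listed genes and 8.63% of the pairs of all genes. By role, the Oas family, which makes a second messenger that activates RNase L, was negative in 42 of 50 pairs and the Ifit family in 39 of 51. The sensors were negative in 45 of 70, and the effectors around Rsad2 and Bst2 in 49 of 86. The median log2 fold change was -0.30 for the Ifit family, -0.22 for the Oas family and -0.04 for those effectors.

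**Figure D3:**
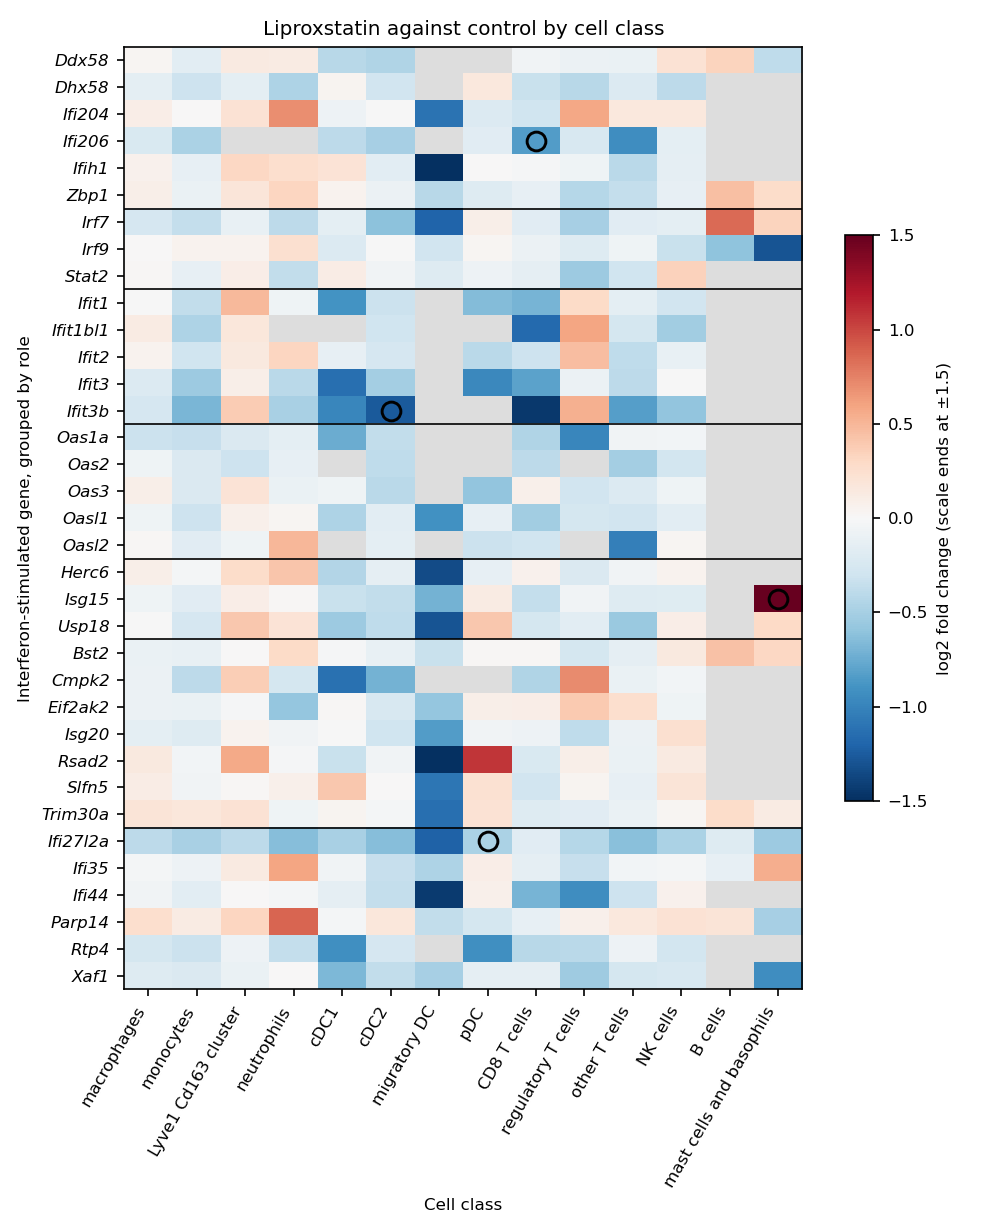
Log2 fold change of liproxstatin over control (blue lower, red higher, scale ending at ±1.5, grey not tested) for the 35 genes in 14 classes. Circles mark the 4 pairs with an edgeR adjusted p under 0.05: Ifit3b in cDC2, Ifi206 in CD8 T cells, Ifi27l2a in pDC and Isg15 in mast cells and basophils.

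Mononuclear phagocytes were the class with the most cells and the deepest sums. All 35 genes were tested and none passed (0; 2.25% of all genes passed in this class), by edgeR or by DESeq2, and 1 had an unadjusted p under 0.05 (16.6% of all genes did). Their median log2 fold change was -0.00, the same as that of all genes. Ifi27l2a stood at 2105 and 1550 CPM in control and 1368 and 1335 CPM in liproxstatin tumours, lower without overlap, with a log2 fold change of -0.39 ± 0.16 (SE) and an edgeR adjusted p of 0.281. Parp14 stood at 98.5 and 74.3 CPM against 104 and 99.6 CPM (log2 fold change 0.28, edgeR adjusted p 0.413). Trim30a, a restrainer of NF-kappaB signalling, had a fold change of 0.23, Rtp4 of -0.19 and Oas1a of -0.27 on the log2 scale. The count in this class depended on the control libraries: without control replicate 1, 13 of the 35 genes rose and none fell, where 4.02% of all genes rose. Without control replicate 2, 9 fell and none rose, where 2.73% of all genes fell.

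Within this class, macrophages and monocytes also gave no call. Macrophages had a median fold change of -0.03 and monocytes of -0.19, with 31 of 35 genes negative in monocytes. The background was 1.5% of genes in macrophages and 0.127% in monocytes. By DESeq2 1 gene fell in monocytes and none changed in macrophages, with the share of all genes not counted. By edgeR 2 genes had an unadjusted p under 0.05 in each, where 14.8% of all genes did in macrophages and 8.73% in monocytes. Without control replicate 2, 20 of the 35 genes fell in monocytes (1.45% of all genes did) and 10 in macrophages (2.31%). Without control replicate 1, 1 rose in monocytes (3.16% of all genes did) and 2 in macrophages (3.21%). In the Lyve1 Cd163 cluster 25 of 34 tested genes had a positive fold change (median 0.10), none passed by edgeR or DESeq2 (0.35% of all genes did) and 6 had an unadjusted p under 0.05 (8.35% of all genes did). There too, 6 genes rose without control replicate 1 (0.955% of all genes) and 1 fell without control replicate 2 (0.58%).

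In neutrophils, the cells the series title names, no listed gene passed among 33 tested, by edgeR or DESeq2, and the background was 0.188% of genes. The median log2 fold change was -0.01, and 2 genes had an unadjusted p under 0.05 (7.57% of all genes did). Parp14 had the smallest of these: its levels were 175 and 130 CPM in control and 248 and 300.4 CPM in liproxstatin neutrophils, higher without overlap, with a log2 fold change of 0.87 ± 0.22 (SE) and an edgeR adjusted p of 0.160. Ifi27l2a stood at 1903 and 1078 CPM against 1026 and 891 CPM, lower without overlap (log2 fold change -0.64, edgeR adjusted p 0.513). Ifit3b (-0.49), Ifi35 (0.59) and Oasl2 (0.49) followed in order of p. Isg15 and Rsad2, the abundant genes of this class, had log2 fold changes of 0.02 ± 0.25 (SE) and -0.01 ± 0.23, with the liproxstatin libraries between the controls. Control replicate 1 held only 98 neutrophils. Without it 1 gene rose (1.74% of all genes did), and without control replicate 2, 3 genes fell (0.484%).

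With the conventional and migratory dendritic cells pooled (dendritic cells), 32 of 35 genes had a negative fold change, with a median of -0.36 on the log2 scale. For 18 of them both liproxstatin libraries lay below both controls, where 23.9% of all genes did. Ifit3b was the 1 gene that fell (0.162% of all genes passed): it stood at 37.0 and 34.0 CPM in control and 10.7 and 16.0 CPM in liproxstatin dendritic cells, from 53 to 130 UMIs per library. The log2 fold change was -1.38 ± 0.21 (SE), with an edgeR adjusted p of 0.0173. Cmpk2, a mitochondrial nucleotide kinase next to Rsad2, stood at 27.3 and 26.7 CPM against 11.1 and 15.3 CPM (-1.0 ± 0.20, edgeR adjusted p 0.0855). Ifit3 followed at 86.4 and 73.3 CPM against 42.7 and 55.3 CPM (-0.67 ± 0.15, edgeR adjusted p 0.155), then Herc6, an E3 ligase for Isg15 (-0.45), and Xaf1, a proapoptotic factor (-0.50). All 10 markers of macrophages were detected in these cells, and their summed level ran from 936 to 1641 CPM in control and from 890 to 923 CPM in liproxstatin dendritic cells. Their part in the result was not tested.

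By subset, the fall of Ifit3b passed in cDC2. It stood at 70.3 and 75.7 CPM in control and at 27.3 and 32.0 CPM in liproxstatin cDC2, with the groups far apart, a log2 fold change of -1.26 ± 0.21 (SE) and an edgeR adjusted p of 0.0296 (0.163% of all genes passed in cDC2). In all, 33 of the 35 genes had a negative fold change in cDC2, with a median of -0.30. The 9 monocyte markers summed to 1848 to 2279 CPM in control and 1802 to 1825 CPM in liproxstatin cDC2. The 10 macrophage markers ran from 806 to 1356 CPM in control and from 1182 to 1622 CPM in liproxstatin cDC2, so the groups overlapped. The 8 migratory dendritic cell markers ran from 171 to 210.2 CPM against 266 to 298 CPM, and the 8 T cell markers from 25.8 to 37.8 CPM against 10.4 to 21.3 CPM. The part of these cells in the result was not tested. In type 1 conventional dendritic cells (cDC1) none of 32 genes passed by edgeR, where 0.129% of all genes did. DESeq2 called none either, but left the adjusted p undefined for 14 of the 32. In edgeR 4 had an unadjusted p under 0.05 (5.83% of all genes did) and the median was -0.18. In migratory dendritic cells 21 of 21 tested genes were negative, with a median of -0.91, but no listed gene and none of all 3525 genes passed (0.0%) and 1 listed gene had an unadjusted p under 0.05 (3.77% of all genes did). DESeq2 called none. That class held 27 to 46 cells a library, and control replicate 1 alone was high: its sum was 9734 CPM, against 2401 CPM in control replicate 2 and 3636 and 2510 CPM in the liproxstatin libraries.

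The fall of Ifit3b in dendritic cells passed edgeR's test when either control library or liproxstatin replicate 2 was left out, and missed it without liproxstatin replicate 1 (adjusted p 0.0622). Over its alternatives the log2 fold change ran from -1.79 to -1.05 and the edgeR adjusted p from 2.74e-09 to 0.489. In cDC2 it was also lost without liproxstatin replicate 1 (edgeR adjusted p 0.497, range over the alternatives 1.01e-05 to 0.776). The direction turned to 0.52 when single cells were gated by their markers in place of clusters. The count of falling genes in pooled dendritic cells was 2 without control replicate 1, where 0.443% of all genes fell, and 10 without control replicate 2, where 0.521% did.

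pDC, the class known for making interferon alpha, held 1 fall. Ifi27l2a stood at 2246 and 1930 CPM in control and 1508 and 1485 CPM in liproxstatin pDC, and the groups did not overlap. Its log2 fold change was -0.47 ± 0.10 (SE), with an edgeR adjusted p of 0.0274 (0.254% of all genes passed). The call was lost in 7 of 10 alternatives, among them without control replicate 1 (log2 fold change -0.33) and without either liproxstatin library. Over the alternatives, DESeq2 included, the adjusted p ran from 0.00104 to 0.998. Bst2 stayed level, at 5260 and 4935 CPM against 4743 and 5488 CPM, with a log2 fold change of 0.01 ± 0.09 (SE). All 10 macrophage markers were detected in pDC, at a summed 962 to 1328 CPM in control and 692 to 807 CPM in liproxstatin pDC, and their part in the result was not tested. Without control replicate 1, 5 genes rose in pDC (1.38% of all genes did), and without control replicate 2, 4 fell (0.691%).

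Ifi27l2a had a negative fold change in all 14 classes. Its liproxstatin libraries lay below both controls in 9 classes, and its unadjusted p was under 0.05 in 8, but the adjusted p passed in pDC alone. By class, 15.7% (neutrophils) to 28.1% (macrophages) of all genes lay lower without overlap. Between 1.77% (B cells) and 6.26% (macrophages) of all genes were lower with an unadjusted p under 0.05. The classes come from the same 4 libraries, so they do not repeat the comparison independently. The log2 fold changes of Ifi27l2a ran from -1.21 in migratory dendritic cells to -0.17 in CD8 T cells. Monocytes (3069 and 2430 CPM against 1877 and 1915 CPM), other T cells (2220 and 1681 CPM against 1075 and 1441 CPM) and NK cells (295 and 325 CPM against 195 and 244 CPM) showed the same order without overlap. Control replicate 1 was its highest library in 12 of the 14 classes, and without that library the fold change turned to a positive sign in migratory dendritic cells (0.17) and CD8 T cells (0.04). Rtp4 was negative in 11 of 11 classes, Oas1a in 10 of 10, Ifi206 in 9 of 9 and Oas2 in 8 of 8. These are counted over the classes in which each was tested, and the share of all genes negative in every class was not counted. At the other end, Parp14 was positive in 9 of 14 classes and Slfn5 in 8 of 12.

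In CD8 T cells 31 of 35 genes had a negative fold change, with a median of -0.27, and for 19 of them both liproxstatin libraries lay below both controls, where 20.2% of all genes did. One of the 35, Ifi206, a DNA sensor of the same family as Ifi204, fell (1.27% of all genes passed). It stood at 12 and 10.0 CPM in control and 6.07 and 6.12 CPM in liproxstatin CD8 T cells, from 57 to 118 UMIs per library, and mast cells and basophils held 0.584 CPM. The log2 fold change was -0.83 ± 0.21 (SE), with an edgeR adjusted p of 0.0360. Ifit1 followed with 22.9 and 15.7 CPM against 11.5 and 11.6 CPM (-0.70 ± 0.18, edgeR adjusted p 0.0569), then Rtp4 (-0.41), Ifit3b (-1.45, from 4 to 15 UMIs per library) and Oas1a (-0.45). The Ifi206 call was lost in 7 of 11 alternatives, among them without control replicate 1 and without liproxstatin replicate 1 or 2. Over the alternatives its adjusted p ran from 0.00402 to 0.397 and its fold change stayed between -1.16 and -0.68. The 9 monocyte markers summed to 443 to 723 CPM in control and 313 to 406 CPM in liproxstatin CD8 T cells, and the 5 markers of regulatory T cells to 581 to 748 CPM against 906 to 999 CPM. Their part in the result was not tested. Without control replicate 2, 6 genes fell in CD8 T cells (0.676% of all genes did), and without control replicate 1 none did (1.1%). Ifi208, a further gene of the Ifi206 family, also fell: it stood at 29.4 and 24.0 CPM against 15.9 and 18.4 CPM (-0.62 ± 0.16, edgeR adjusted p 0.0424, lost in 7 of 11 alternatives).

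**Figure D4:**
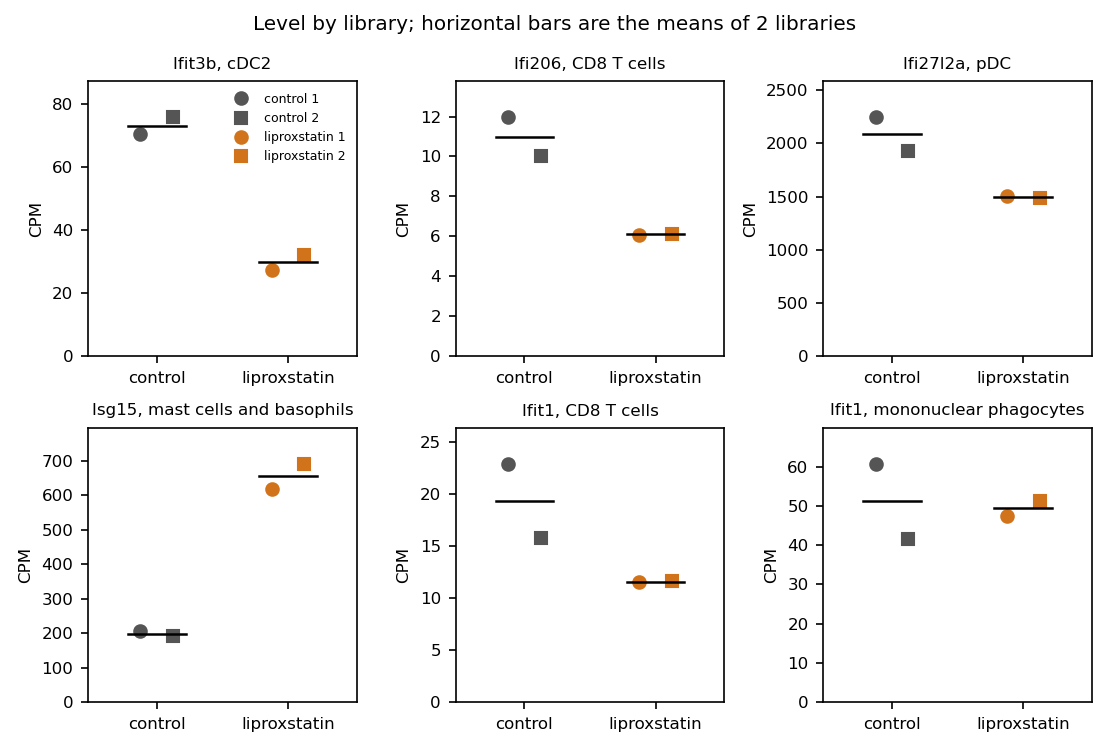
CPM of single genes in the 4 libraries, with control in grey, liproxstatin in orange and bars for the mean of 2 libraries. Ifit3b in cDC2, Ifi206 in CD8 T cells and Ifi27l2a in pDC lie lower in both liproxstatin libraries and Isg15 in mast cells and basophils lies higher, while Ifit1 separates by group in CD8 T cells and overlaps in mononuclear phagocytes.

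The difference in response between CD8 T cells and mononuclear phagocytes was itself tested, with the library as a block. Of 35 genes, 2 passed, Ifit1 and Ifit3, both lower in CD8 T cells (0.654% of all genes passed). For Ifit1 the difference in log2 fold change was -0.73 ± 0.14 (SE), with an edgeR adjusted p of 0.0106: its fold change was -0.70 in CD8 T cells and -0.00 in mononuclear phagocytes, where its levels were 60.7 and 41.7 CPM against 47.5 and 51.3 CPM. For Ifit3 the difference was -0.65 ± 0.15 (SE), with an edgeR adjusted p of 0.0440. It stood at 22 and 10.9 CPM against 7.47 and 10.3 CPM in CD8 T cells and at 96.4 and 52.0 CPM against 57.5 and 66.3 CPM in mononuclear phagocytes. The Ifit1 difference missed the edgeR threshold without control replicate 2 (adjusted p 0.236) and passed without any other single library. That of Ifit3 passed without liproxstatin replicate 2 but not without any other library, with edgeR adjusted p-values up to 0.371. In all, 32 of 35 differences were negative. The same test of dendritic cells against mononuclear phagocytes gave 33 of 35 negative differences, 12 with an unadjusted p under 0.05 (6.62% of all genes had one) and none that passed by edgeR or DESeq2 (0.132% of all genes did). Without control replicate 1, 6 genes passed there, all lower in dendritic cells, where 0.85% of all genes were. Neutrophils against mononuclear phagocytes gave no gene that passed, by either tool, where 0.367% of all genes did, and 2 had an unadjusted p under 0.05 (5.12% of all genes did).

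The other lymphocytes gave no call. Regulatory T cells had a median log2 fold change of -0.19, 8 of 33 genes with an unadjusted p under 0.05 (7.56% of all genes) and 0.617% of all genes past the adjusted threshold. Oas1a had the smallest p there, with 67.6 and 62.7 CPM in control and 29.0 and 37.2 CPM in liproxstatin regulatory T cells (-0.97 ± 0.28, edgeR adjusted p 0.10). Other T cells had a median of -0.19, with 32 of 35 negative, 7 at an unadjusted p under 0.05 (7.77% of all genes) and 0.165% of all genes past the adjusted threshold. NK cells had a median of -0.06, with 2 at an unadjusted p under 0.05 (7.43% of all genes) and 0.0843% of all genes past the adjusted threshold. Of these classes, DESeq2 called 1 gene lower in NK cells and none in the others, with the share of all genes not counted. It left the adjusted p undefined for 18 of 33 genes in regulatory T cells. It did so for 14 of 35 in other T cells and 4 of 35 in NK cells. In B cells, with 21 to 38 cells a library, 9 of the genes were tested, none had an unadjusted p under 0.05 (3.91% of all genes did), DESeq2 called none and the background was 0.031%. Leaving out a control library gave 3 falls in regulatory T cells (without control replicate 2, 0.473% of all genes) and 2 rises and 1 fall in NK cells (without control replicate 1, 2.74% and 2.55% of all genes).

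Mast cells and basophils held the 1 rise. Isg15 stood at 208 and 191 CPM in control and 618 and 691 CPM in liproxstatin tumours, from 89 to 394 UMIs per library, so that both liproxstatin libraries lay about 3 times as high. The log2 fold change was 1.83 ± 0.18 (SE), with an edgeR adjusted p of 8.64e-05 (0.56% of all genes passed), and it passed in all 9 alternatives that could be fitted, with fold changes from 1.55 to 1.94. Of the 12 listed genes tested in this class, 7 had a positive and 5 a negative fold change. Ifit3, at 1.44 CPM, was not among those tested. Cxcl10, a chemokine for T cells that interferons induce, also rose (3.55 ± 0.56, edgeR adjusted p 0.00605). It went from 4.68 and 4.98 CPM to 34.0 and 71.9 CPM, on 2 and 3 against 12 and 41 UMIs. Its control counts were too low for the filter on low counts, so it was tested only through its liproxstatin libraries. The Cxcl10 call was lost in 3 of the 8 alternatives and is not separate evidence beside Isg15. The class held 42 to 85 cells a library and was led by the mast cell proteases Cma1 and Mcpt4. Cma1 ran from 34172 to 39871 CPM, while the basophil protease Mcpt8 ran from 6.64 to 101 CPM, highest in control replicate 1. Of the 9 monocyte markers 8 were detected, at a summed 49.1 to 56.4 CPM in control and 70.9 to 126 CPM in liproxstatin mast cells. Of the 8 pDC markers 4 were detected, at a summed 6.64 to 9.35 CPM against 14.2 to 26.3 CPM, and Siglech, Ccr9, Cd300c and Spib were at 0 in every library. The 10 neutrophil markers ran from 3211 to 3259 CPM against 2969 to 2975 CPM. The part of these cells in the result was not tested.

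Cells high in the whole group of genes were counted after each cell was thinned to 3000 UMIs. A cell was called module-high when at least 13 of the 35 genes were detected, which held for 9.78% of the 22429 immune cells deep enough. This class is a range and not a cell type: 363 cells lay at 13 genes and 422 at 12. The shares were 30.6% and 17% of monocytes in control and 18.4% and 21.0% in liproxstatin tumours. In cDC2 they were 28.6% and 18.5% against 14.7% and 18.4%, and in neutrophils 25.3% and 13.4% against 21.2% and 20%. They were 20.3% and 8.70% against 7.79% and 13.4% in regulatory T cells, and 9.80% and 5.49% against 7.91% and 6.05% in macrophages. CD8 T cells held 0.82% to 2.33%, and B cells and mast cells held none in any library. Only in cDC2, in cDC1 and in migratory dendritic cells did the groups not overlap, lower with liproxstatin in cDC2 and migratory dendritic cells and higher in cDC1. These shares rest on few module-high cells: 16 and 10 against 11 and 16 in cDC2, 3 and 3 against 6 and 6 in cDC1, and 2 and 1 against 1 and 0 in migratory dendritic cells. With single-cell gates the groups overlapped in cDC2, at 19.4% and 12.9% against 12.5% and 14.6%, and in cDC1.

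**Figure D5:**
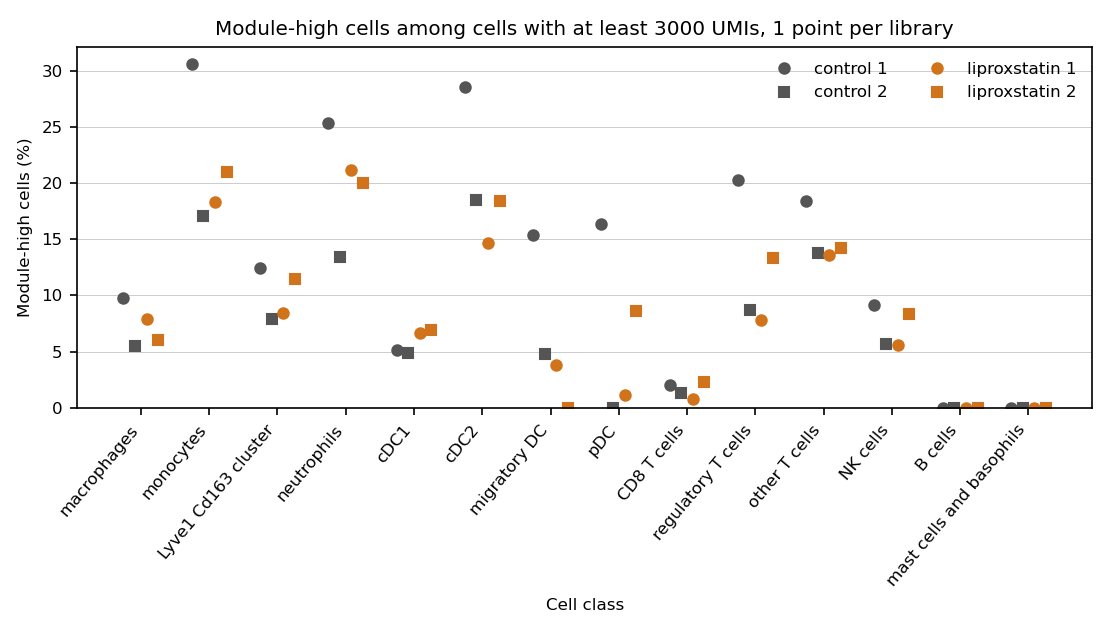
Share of module-high cells (at least 13 of 35 genes detected in 3000 UMIs) in 14 classes, with 1 point per library, grey for control and orange for liproxstatin. Control replicate 1 is the highest point in most classes, with 30.6% in monocytes, and B cells and mast cells are at 0.

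Control replicate 1 again stood apart: 14.2% of its immune cells were module-high, against 7.58% in control replicate 2 and 9.58% and 9.83% in the liproxstatin libraries. Monocytes were 38.0% of the module-high cells of control replicate 1 and 31.3%, 36.9% and 43.3% of those of the other 3 libraries, from 13.9% to 20.3% of the cells counted. Within monocytes the cluster led by Vcan and Ly6c2 had 35% and 18.7% in control and 21.7% and 24.7% in liproxstatin tumours, and the cluster led by Chil3 and Hp had 15.4% and 12.7% against 10.7% and 10.3%. Among macrophages the cluster led by Mmp12, Hmox1 and Fabp5 ran from 6.04% in control replicate 2 to 19.8% in liproxstatin replicate 1. The depth limit left out 23 and 114 neutrophils of the control and 205 and 243 neutrophils of the liproxstatin libraries. Without thinning, at a limit of 26 genes, only 0.51% to 1.1% of neutrophils were module-high, against 14.5% to 25.2% of monocytes.

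The interferon side of the pathway was read from a separate list. Of 16 type I interferon genes, Ifnb1, which encodes interferon beta, was the 1 gene with enough UMIs to be tested. In mononuclear phagocytes it gave 7 and 3 UMIs in control and 141 and 100 UMIs in liproxstatin tumours. These UMIs lay in 3 and 3 against 14 and 17 cells, or 0.158% and 0.0851% against 0.334% and 0.354% of the class. Ifnb1 rose, by 4.2 ± 0.48 (SE) on the log2 scale, with an edgeR adjusted p of 0.00710. The call held in 6 of 9 alternatives. Its control counts alone would not have met the filter on low counts. Ifnb1 was thus tested only because of the group in which it was high, and no conclusion is drawn from its p-value. In control replicate 1, cDC2 held 11 further Ifnb1 UMIs and pDC held 8, and pDC of liproxstatin replicate 1 held 1. Ifnar1 and Ifnar2, the receptor chains, did not pass in mononuclear phagocytes: Ifnar1 had a fold change of 0.33 (58.2 and 55.0 CPM against 70.6 and 67.4 CPM, edgeR adjusted p 0.0633) and Ifnar2 of 0.02. In neutrophils Ifnar1 stood at 40.1 and 47.6 CPM against 70.8 and 83.9 CPM (0.74, edgeR adjusted p 0.440), higher without overlap.

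Beyond the listed genes, a list of 57 further type I targets, 56 of them in the matrices, gave 5 rises and 1 fall among 637 pairs of a gene and a class, with 62.0% negative fold changes. Over all genes 0.484% of pairs were called and 50.6% were negative. The rises include Cxcl10 in mast cells and basophils, which was tested only through its liproxstatin libraries. In neutrophils Cxcl10 rose from 83.0 and 91.0 CPM to 218 and 302 CPM (1.53 ± 0.23, edgeR adjusted p 0.00711, lost in 4 of 10 alternatives). In cDC2 Ifitm1, a membrane protein that blocks viral entry, rose from 2829 and 2913 CPM to 5350 and 4104 CPM (0.76 ± 0.12, edgeR adjusted p 0.0296, lost in 3 of 10 alternatives). Ly6a, a surface protein of stem cells and lymphocytes, rose in macrophages (0.45, lost in 3 of 11 alternatives) and Trim25, a ligase that activates the RNA sensor Ddx58, in pDC (0.94, lost in 8 of 10 alternatives). Of 22 interferon gamma targets, Gbp5 rose in neutrophils (1.5 ± 0.26, edgeR adjusted p 0.0176, lost in 4 of 10 alternatives). Serpina3g rose in the Lyve1 Cd163 cluster (0.69, lost in 4 of 9). None fell among 245 pairs, of which 46.1% were negative. Gbp5 encodes a guanylate-binding protein, and the sequence it shares with related genes was not counted. Socs3, a negative regulator of cytokine receptors, rose in cDC2 (0.97, lost in 2 of 10 alternatives). In neutrophils Cxcl10 and Gbp5 were higher in both liproxstatin libraries, while Isg15 and Rsad2 lay between the controls.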

How the data were processed

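Droplet libraries of CD45+ tumour cells were deposited by the authors as raw UMI counts per gene and barcode, made with Cell Ranger (version 6.1.1 per the file headers, version 4 per the submitters' processing notes, which also name mm10). Barcodes were used with at least 200 genes and at most 15% mitochondrial UMIs, and Scrublet (scanpy 1.11.5) marked doublets at a rate proportional to the number of barcodes, which were removed. Cells were clustered on 2348 variable genes, 40 principal components and 20 neighbours (Leiden resolution 1, 30 clusters), without 54 interferon genes, and clusters were named from marker lists. Clusters that stayed unnamed or were not immune were left out of the classes, and gamma-delta T cells were not tested because a library held fewer than 20 of them.

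Counts were summed per class and library and compared with edgeR 4.0.16 (R 4.3.3; quasi-likelihood test, TMM scaling, its filter on low counts, threshold 0.05 after Benjamini-Hochberg adjustment over all genes of a class). DESeq2 1.42.0 was an alternative, and shares of all genes were counted for edgeR only. Others dropped the filter, added the replicate number as a block, left out each library, kept doublets, gated single cells, equalised cell numbers and changed the module-high definition. The edgeR test of liproxstatin against control was tried on simulated counts for mononuclear phagocytes, neutrophils, dendritic cells and CD8 T cells. The tests of differences between classes, DESeq2, the replicate block and the fits that left out a library were not. Genes named are those past the threshold, the 5 smallest p-values in mononuclear phagocytes, neutrophils, dendritic cells and CD8 T cells, the 3 most abundant per class, other interferon genes past the threshold, and Ifnb1, Ifnar1 and Ifnar2. 1 further gene of this rule is not reported here. Genes and lists were chosen with earlier results of these data known. Levels in UMIs cover 3′ ends and are compared between genes without a length correction.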

Additional observations from a re-analysis of the deposited data

Results flagged for a closer look

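In a test of the difference in response to liproxstatin between CD8 T cells and mononuclear phagocytes, 2 of the 35 genes passed. Of all genes, 0.654% passed. For Ifit1 the difference in log2 fold change was -0.73, lower in CD8 T cells. For Ifit3 it was -0.65, in the same direction. The Ifit1 difference was lost in 2 of 10 alternatives, without control replicate 2 and with equal cell numbers per library. That of Ifit3 was lost in 6 of 10: without control replicate 1, control replicate 2 or liproxstatin replicate 1, with doublets kept, with single-cell gates and with equal cell numbers per library.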

How the results depend on the processing

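Counts of genes past the threshold moved with the processing, and the cause was not tested. The counts in this section are given without the share of all genes past the threshold in the same fit. They are therefore not results about the listed genes. Without the filter on low counts they were 2 in mononuclear phagocytes, 2 in macrophages, 1 in monocytes, 1 in the Lyve1 Cd163 cluster, 1 in neutrophils, 7 in dendritic cells, 3 in cDC2, 2 in migratory dendritic cells, 3 in CD8 T cells, 1 in regulatory T cells, 3 in other T cells, 1 in NK cells and 2 in B cells. They were 5 for dendritic cells and 5 for CD8 T cells against mononuclear phagocytes. DESeq2 gave 1 in monocytes, 0 in dendritic cells, 2 in cDC2, 0 in CD8 T cells, 1 in NK cells and 4 for CD8 T cells against mononuclear phagocytes, and left the adjusted p of Ifit3b in dendritic cells undefined. DESeq2 left the adjusted p undefined for 5 genes in dendritic cells, 4 in cDC2 and 21 in pDC. It did so for 1 gene in the Lyve1 Cd163 cluster and 2 in mast cells and basophils. For the differences it did so for 6 genes in CD8 T cells, 3 in dendritic cells and 2 in neutrophils. With doublets kept there were 0 calls in pDC, 0 in CD8 T cells and 1 for each of the differences of dendritic cells and CD8 T cells. Equal cell numbers per library gave 0 in dendritic cells, cDC2, pDC, CD8 T cells and the CD8 difference, 1 in other T cells, 2 for neutrophils against mononuclear phagocytes and a fold change of 0.12 for Ifi27l2a in B cells. Equal numbers per cluster gave 4 in dendritic cells. Single-cell gates gave 0 in cDC2, 0 in pDC, 1 in migratory dendritic cells, 1 for the CD8 difference, and fold changes of 0.22 for Ifi27l2a in neutrophils and 0.52 for Ifit3b in cDC2.

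The replicate block gave 1 gene in the Lyve1 Cd163 cluster, 3 in dendritic cells, 2 in cDC2, 1 in migratory dendritic cells, 0 in pDC, 3 in CD8 T cells, 1 in regulatory T cells, 3 for the dendritic cell difference and 4 for the CD8 difference. Same-numbered libraries deviated with correlations of -0.03 to 0.19 and share only a number.

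The summed level, as a log2 ratio, was -0.15 in cDC2 and -0.50 in B cells with single-cell gates, and as a mean of log values 0.067 in the Lyve1 Cd163 cluster and -0.10 in mast cells. The module-high difference in percentage points was, in cDC1, -0.833 with single-cell gates, 1.51 with doublets kept, 1.04 with 1500 UMIs, 0.261 with 1 gene fewer and -0.337 by summed UMIs. In B cells it was -0.423, -1.32, 1.92 and 2.17 for the first 4 of these. By summed UMIs it was -5.42 in other T cells and -0.565 in mast cells, where 1500 UMIs gave 0.625.

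Leaving out 1 library gave 0 to 13 genes in mononuclear phagocytes and in migratory dendritic cells, 0 to 10 in macrophages and in dendritic cells, 0 to 20 in monocytes, 0 to 7 in cDC1, 0 to 6 in cDC2, CD8 T cells, the Lyve1 Cd163 cluster and the dendritic cell difference, 0 to 5 in pDC, 0 to 3 in neutrophils, regulatory T cells, NK cells and the CD8 difference, 0 to 2 in other T cells and B cells and 1 to 2 in mast cells. The summed ratio ran from -0.40 to 0.081 in mononuclear phagocytes, -0.38 to 0.027 in macrophages, -0.53 to -0.049 in monocytes, -0.33 to 0.059 in the Lyve1 Cd163 cluster, -0.40 to 0.32 in neutrophils, -0.64 to -0.075 in dendritic cells, -0.59 to -0.14 in cDC2, -1.66 to 0.36 in migratory dendritic cells, -0.30 to -0.017 in CD8 T cells, -0.53 to -0.11 in regulatory T cells, -0.54 to 0.86 in B cells and 0.0785 to 0.65 in mast cells. Ifi27l2a ran from -0.46 to 0.035 in B cells, -0.35 to 0.039 in CD8 T cells and -1.92 to 0.17 in migratory dendritic cells. In mononuclear phagocytes Oas1a ran from -0.54 to 0.040 and Rtp4 from -0.40 to 0.044. With 1 library left in a group, that library is assumed to vary like the others. With 2 libraries a group, classes of few cells (B cells, migratory dendritic cells, mast cells) give wide ranges.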
